A study of Rattus norvegicus with 2 samples.

Results

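The 8 miRNAs described here, miR-7a, miR-9, miR-124, miR-128, miR-129, miR-137, miR-138 and miR-218, are enriched in neurons or neuroendocrine cells, and they were chosen by name, as the guide strands so called in the array design, from the 350 rat miRNAs that the arrays carry. No name with a -5p or -3p ending met the rule. The study set squamous cell carcinoma of the rat tongue against normal tongue. The group labelled tumour comes from male Sprague-Dawley (SD) rats, 6 to 7 weeks old at the start, given the carcinogen 4NQO dissolved at 0.02 g/l, and the group labelled normal from rats of the same sex, strain and age given distilled water. Each arm held 20 rats, tissue was taken at the end of week 36, and 7 tumours and 7 normal tissues went into RNA extraction. The data are 1 array per group, both with Cy3-labelled RNA, called here the tumour-labelled array and the normal-labelled array. The labels do not say how many animals an array holds. Some values run against the array labels. miR-21 and miR-31, which are commonly raised in squamous cell carcinoma, had total gene signals (the scanner software's summary of a miRNA's probes, in intensity units) of 1221 and 44.8 on the tumour-labelled array, against 6007 and 355 on the normal-labelled array. miR-1, a miRNA of muscle, which carcinoma tissue commonly holds less of, had 6261 on the tumour-labelled array, against 257 on the normal-labelled array. Whether the labels are exchanged was not tested, so each direction below is between arrays as labelled and may not be that of tumour against normal tissue. With 1 array per group no test between groups was possible. Each SD or SE below is a spread of spots within arrays, and each error of a total gene signal is the scanner software's own estimate. Neither measures the spread between animals.

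A miRNA is a short RNA that guides a silencing complex to messenger RNAs, chiefly through its seed, bases 2 to 8 from the 5′ end. miR-124 and miR-9 are classic neuronal miRNAs: miR-124 represses the splicing regulator PTBP1 during neuronal differentiation, and miR-9 acts in neural progenitors. In the tongue the cell bodies of most motor and sensory neurons lie outside the organ, so nerve tissue there consists largely of axons and their glia. In bulk tissue, fewer cells of a type and less RNA per cell cannot be told apart.

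The mature sequences are shown because they identify what each probe reads, and because the probes of a miRNA end at different bases of or near its seed. For 7 of the 8 miRNAs the probes matched a RefSeq mature sequence (build GRCr8) completely; miR-124 is named only. The seed is in capitals, 5′ to 3′:
miR-7a: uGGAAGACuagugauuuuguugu
miR-9: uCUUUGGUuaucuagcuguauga
miR-128: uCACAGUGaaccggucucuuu
miR-129: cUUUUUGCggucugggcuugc
miR-137: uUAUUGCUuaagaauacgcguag
miR-138: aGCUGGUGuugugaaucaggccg
miR-218: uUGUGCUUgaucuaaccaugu

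These 7 seeds all differ. Among miRNAs of the array matched to RefSeq, miR-7b was the one that shared a seed with a member, that of miR-7a. Each of the 8 was measured by 2 probes with 10 spots each on each array. For miR-7a, miR-128 and miR-218, the members with signal, the probes are these DNA sequences, complementary to the miRNA, with the base by which the longer probe exceeds the shorter in capitals:
miR-7a, 21 bases: acaacaaaatcactagtcttc
miR-7a, 22 bases: acaacaaaatcactagtcttcC
miR-128, 19 bases: aaagagaccggttcactgt
miR-128, 20 bases: aaagagaccggttcactgtG
miR-218, 19 bases: acatggttagatcaagcac
miR-218, 20 bases: acatggttagatcaagcacA

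In all 3 miRNAs the longer probe pairs with the mature miRNA from base 2 to its 3′ end and the shorter from base 3. The probes of miR-129 and miR-138, of 14 and 15 bases, stop further from the 5′ end, at bases 7 and 8 for miR-129 and at bases 9 and 10 for miR-138. In GRCr8 the mature miR-128 lies at 2 loci, in the hairpin at chr13:42251884-42251965 (+ strand), inside R3hdm1, and in that at chr8:120963795-120963878 (- strand), inside Arpp21. The mature miR-7a lies in the hairpin at chr17:6278692-6278788 (+ strand), inside Hnrnpk, and in a hairpin at chr1:142215800-142215894 (+ strand). The mature miR-218 lies at chr10:20572523-20572632 (+ strand), inside Slit3, and at chr14:66922348-66922457 (- strand). Each protein-coding gene named here runs on the same strand as its miRNA. The array's own grid names build rn4.

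Most of these miRNAs were detected on neither array, which was also so for most miRNAs of the array design. Detection of a probe required that the scanner software marked over 50% of its spots well above background, and detection of a miRNA required 1 such probe. By this rule 2 of the 8, miR-128 and miR-7a, were detected on the tumour-labelled array, against 29.7% of all 350 miRNAs. On the normal-labelled array 1 of the 8, miR-7a, was detected, against 25.1% of all miRNAs. On both arrays 1 of the 8, again miR-7a, was detected, against 24.3% of all miRNAs. The remaining 6 were detected on neither array, as were 69.4% of all miRNAs. The lowest spot marked well above background stood at 19.1 intensity units on the tumour-labelled array and at 17.3 on the normal-labelled array. Negative control spots averaged 0.614 ± 3.04 (SD, 655 spots) on the tumour-labelled array and 1.67 ± 3.02 (SD, 642 spots) on the normal-labelled array.

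**Figure D1:**
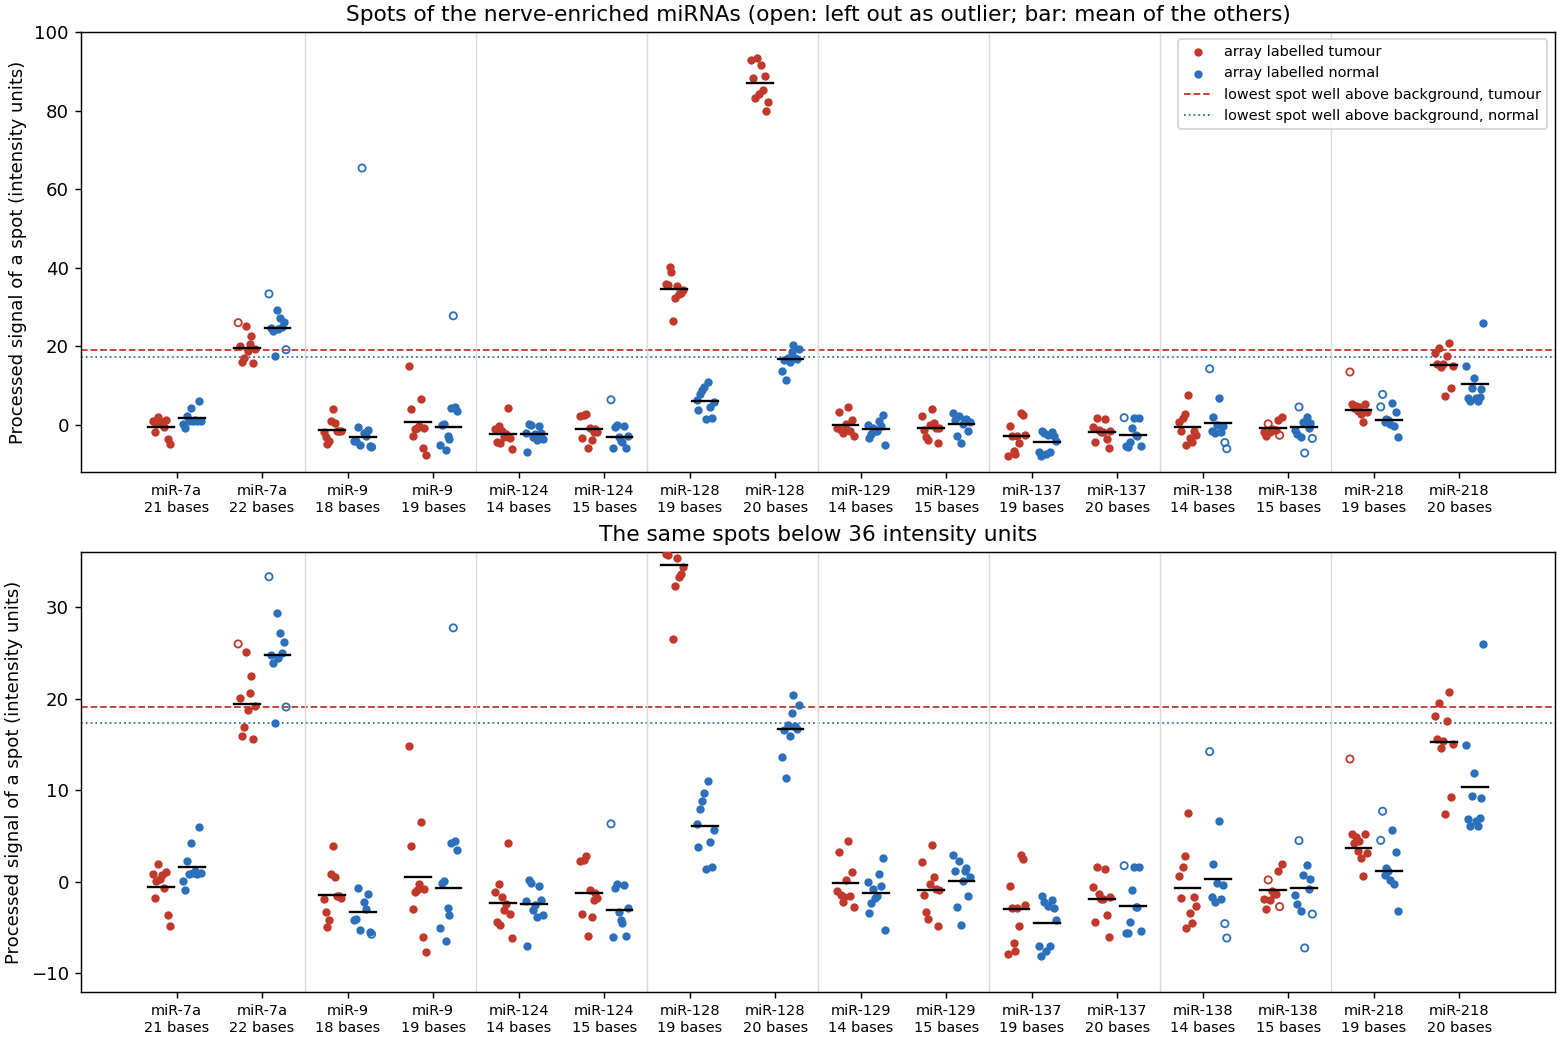
Processed signal in intensity units of every spot of the 8 miRNAs, by probe and probe length, with the tumour-labelled array left of the normal-labelled array; bars are means, open points are spots left out as outliers, and the dashed and dotted lines are the lowest spots marked well above background (19.1 and 17.3). Both probes of miR-128 lie clear of the line on the tumour-labelled array, the longer probe of miR-7a lies near or above it on both arrays, and the used spots of miR-9, miR-124, miR-129, miR-137 and miR-138 stay below it.

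miR-128, which restrains neuronal excitability in mice and is also expressed in skeletal muscle, was the brightest of the 8 on the tumour-labelled array. Its longer probe had a lowest, median and highest spot of 79.8, 86.8 and 93.5 intensity units on the tumour-labelled array, against 11.4, 16.9 and 20.4 on the normal-labelled array. Its shorter probe had 26.5, 34.9 and 40.1 on the tumour-labelled array, against 1.44, 6.01 and 11.0 on the normal-labelled array. The spots of the arrays did not overlap for either probe, but spots are repeats within 1 array. Probes of other miRNAs also showed this. The longer probe of miR-126 ran from 592.1 to 630.4 on the tumour-labelled array and from 190.4 to 208.5 on the normal-labelled array. The share of all probes without overlap was not counted. On the tumour-labelled array 10 of 10 spots were well above background for each probe, whereas on the normal-labelled array 3 of 10 were for the longer probe and 0 of 10 for the shorter.

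On the normal-labelled array miR-128 thus missed the detection rule while standing out of the negative controls. The mean of its longer probe there, 16.7 ± 2.62 (SD, 10 spots), exceeded 100% of the negative control spots, and the mean of its shorter probe, 6.08 ± 3.29, exceeded 92.2%. The scanner software's own gene call marked miR-128 as detected on both arrays. Its total gene signal was 80.7 on the tumour-labelled array, with an error of 7.18 given by the software, and 15.1 with an error of 3.46 on the normal-labelled array. It ranked 58 of 350 on the tumour-labelled array and 88 of 350 on the normal-labelled array.

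Because the miRNA missed detection on the normal-labelled array, the ratio is a lower bound, set against the lowest signal of a detected probe there. For scaling, signals were divided by the 75th percentile of the same array, taken over the 140 probes that passed detection on each of them, which was 525.6 for the tumour-labelled array and 277.5 for the normal-labelled array. After this scaling miR-128 was at least 1.59-fold higher on the tumour-labelled array, with at least 2.52-fold for the longer probe, while the scaled signal of the shorter probe about equalled the limit of the other array. Without scaling the bound was at least 3.01-fold. This direction rests on the array labels, against which miR-21, miR-31 and miR-1 ran. Detection on the tumour-labelled array alone held for 5.43% of all miRNAs and detection on the normal-labelled array alone for 0.857%.

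Markers of skeletal muscle, like some markers of other cells, were higher on the tumour-labelled array, as was miR-128. All 4 muscle miRNAs of the list, miR-1, miR-133a, miR-133b and miR-206, were detected on both arrays. Their summed total gene signal was 12732 on the tumour-labelled array and 1080 on the normal-labelled array, which is 27.5% of the signal of all miRNAs on the tumour-labelled array and 4.27% on the normal-labelled array. Single muscle miRNAs ran between 159.6 and 6261 units on the tumour-labelled array and between 14.5 and 423.5 on the normal-labelled array. This is the direction that runs against the labels. After scaling, the log2 ratios of the muscle miRNAs, tumour-labelled over normal-labelled, ran from 0.91 to 3.72. The endothelial miR-126 (0.68), the stromal miR-143 (0.82) and the leukocyte miR-150 (1.43) were also higher on the tumour-labelled array. The other detected leukocyte miRNAs, miR-142-3p (-1.82) and miR-223 (-2.41), and the other detected stromal ones, miR-199a-5p (-1.56) and miR-214 (-1.44), were lower there. Without scaling, the summed total gene signal of the 7 epithelial miRNAs was 2744 on the tumour-labelled array and 2462 on the normal-labelled array. These sums were 5.92% and 9.74% of the signal of all miRNAs of the same array. After scaling their log2 ratios ran from -1.26 (miR-141) to -0.24 (miR-203), so each was lower on the tumour-labelled array by this measure. The median log2 ratio over all 85 miRNAs with a ratio was -0.46. The unscaled sum of the epithelial miRNAs ran the other way, so its direction depended on the scaling. The part of these cell types in the level of miR-128 was not tested.

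miR-7a, a miRNA of neurons and neuroendocrine cells whose sites are carried in large number by the circular RNA Cdr1as, was the member detected on both arrays, through its longer probe alone. That probe had a lowest, median and highest spot of 15.6, 19.2 and 25.1 units on the tumour-labelled array, against 17.4, 24.8 and 29.3 on the normal-labelled array. Without scaling the spots of the arrays overlapped. On the tumour-labelled array 5 of 9 used spots were well above background, the fewest that meet the rule for 9 spots, and on the normal-labelled array 8 of 8 were. The mean was 19.4 ± 3.09 (SD, 9 spots) on the tumour-labelled array and 24.7 ± 3.47 (SD, 8 spots) on the normal-labelled array.

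The probe was among the dimmest detected: 1 of the 175 detected probes was dimmer on the tumour-labelled array and 15 of 149 were on the normal-labelled array. The ratio of the unscaled means, labelled tumour over labelled normal, was 0.785. After scaling the log2 ratio was -1.27 (spot SE 0.10), or 2.41-fold lower on the tumour-labelled array. Among all 85 miRNAs with a ratio, 22.4% were lower there by 2-fold or more, and the median log2 ratio was -0.46. Without scaling the log2 ratio of miR-7a was -0.35, under 2-fold, so its size depended on the factor that sets the arrays on 1 scale.

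The shorter probe of miR-7a, which lacks 1 base, gave no signal. Its spots had a median of 0.212 on the tumour-labelled array and 0.988 on the normal-labelled array, and its means were -0.596 ± 2.18 and 1.66 ± 2.02 (SD, 10 spots on the tumour-labelled array and 10 on the normal-labelled array). Such a split was common. Among 222 pairs of probes of 1 miRNA that differ by 1 base, the longer alone was detected in 33 on the tumour-labelled array and in 26 on the normal-labelled array, the shorter alone in 0 on either. Where both were detected, the longer was brighter by a median of 2.80-fold over 71 pairs on the tumour-labelled array and 2.52-fold over 61 pairs on the normal-labelled array. For miR-128 the longer probe exceeded the shorter 2.52-fold on the tumour-labelled array.

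**Figure D2:**
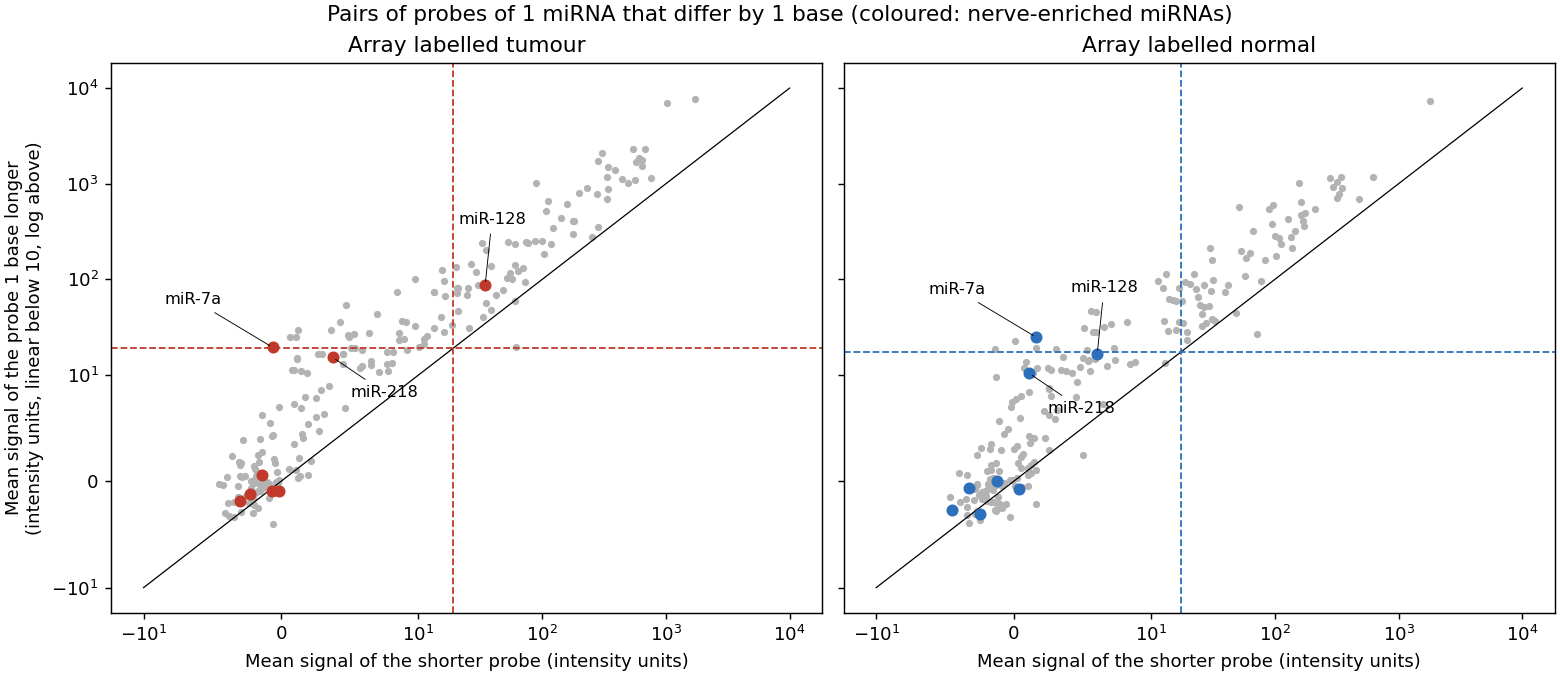
Mean signal of the longer probe against that of the probe 1 base shorter, in intensity units, for 222 miRNAs of each array, the tumour-labelled array on the left; coloured points are the 8 nerve-enriched miRNAs, the diagonal marks equal signal and dashed lines the lowest spot well above background. miR-7a lies in the group whose longer probe alone was detected (33 pairs on the tumour-labelled array, 26 on the normal-labelled array), and the shorter probe was never the one detected alone.

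The miR-7a probe resembles probes of other miRNAs. The longest run that it shares with another miRNA's probe is 13 bases, found for miR-7b and for miR-338, which is enriched in glia. In the other 7 members the longest shared run was 6 to 9 bases. The mature sequences of these relatives are shown for comparison with miR-7a, again with the seed in capitals:
miR-7b: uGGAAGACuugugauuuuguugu
miR-338: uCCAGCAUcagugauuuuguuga

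The probes of miR-7a and miR-7b differ at 1 base, T14A, where T is the base of the miR-7a probe and positions count from 1 at the probe's 5′ end. miR-7b was detected on neither array, with a total gene signal of -1.39 on the tumour-labelled array and 0.505 on the normal-labelled array. miR-338 was detected on the tumour-labelled array alone, with 48.8 on the tumour-labelled array and 9.14 on the normal-labelled array. Whether either of them contributed to the signal of the longer miR-7a probe was not tested.

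miR-218, which is enriched in motor neurons in mice, lay between detection and background. Its longer probe had a lowest, median and highest spot of 7.41, 15.5 and 20.7 units on the tumour-labelled array, against 6.12, 8.06 and 26.0 on the normal-labelled array. Without scaling the spots overlapped over most of their range, and the highest single spot was on the normal-labelled array. Well above background were 2 of 10 spots on the tumour-labelled array and 1 of 10 on the normal-labelled array. The means of 15.3 ± 4.22 on the tumour-labelled array and 10.4 ± 6.19 on the normal-labelled array exceeded 100% and 98.9% of the negative control spots of their own array. Scaled as for miR-128, these means were 0.0291 on the tumour-labelled array and 0.0375 on the normal-labelled array. The order of these means thus depended on the scaling. Both scaled means lay below the lowest scaled signal of a detected probe, 0.0347 on the tumour-labelled array and 0.0657 on the normal-labelled array. No order of the arrays is therefore given. The shorter probe averaged 3.75 ± 1.49 (SD, 9 spots) on the tumour-labelled array and 1.14 ± 2.58 (SD, 8 spots) on the normal-labelled array.

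The scanner software called miR-218 detected on the tumour-labelled array, with a total gene signal of 12.7 and an error of 3.74, and not on the normal-labelled array, with 7.66 and an error of 3.34. No fold is given, because neither array met the detection rule. With the software's call the count of members became 3 of 8 on the tumour-labelled array, against 36% of all miRNAs, and 2 of 8 on the normal-labelled array, against 31.4%.

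The other 5 members, miR-9, miR-124, miR-129, miR-137 and miR-138, were at background. None of their 98 used spots on the tumour-labelled array and none of their 89 on the normal-labelled array was well above background. Their highest used spot was 14.9 units on the tumour-labelled array and 6.69 on the normal-labelled array, and their probe means ran from -3.02 to 0.563 and from -4.49 to 0.355 on those arrays. On the normal-labelled array 2 spots of miR-9, at 65.4 and 27.7 units, were well above background but were left out because the software marked them as outliers.

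The classic neuronal miRNAs gave the following values. The longer probe of miR-124 had a lowest, median and highest spot of -5.91, -1.51 and 2.80 on the tumour-labelled array, against -6.04, -3.26 and -0.190 on the normal-labelled array. The longer probe of miR-9 had -7.65, -0.842 and 14.9 on the tumour-labelled array, against -6.41, -0.143 and 4.49 on the normal-labelled array. The processed signal is the spot's mean minus a surface fitted across the array, so it can lie below 0. The mean of the longer miR-124 probe exceeded 29.8% of the negative control spots on the tumour-labelled array and 4.83% on the normal-labelled array. For the longer miR-9 probe these shares were 49.5% on the tumour-labelled array and 21.7% on the normal-labelled array, so neither miRNA stood above the controls.

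The members that act at synapses were as low. miR-137, which shapes neuronal maturation, had a total gene signal of -3.23 on the tumour-labelled array and -4.75 on the normal-labelled array. miR-138, which limits the size of dendritic spines in rat neurons, had -1.02 on the tumour-labelled array and -0.238 on the normal-labelled array. miR-129, which represses ion channel and synaptic messenger RNAs in rodent neurons, had -0.682 on the tumour-labelled array and -0.747 on the normal-labelled array. The software's error on these totals was between 3.24 and 3.58, so none of these values differed from 0 by more than 1.5 times its error, and their order has no meaning. The deposited value table lists these 5 miRNAs at its floor of 1 on both arrays.

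**Figure D3:**
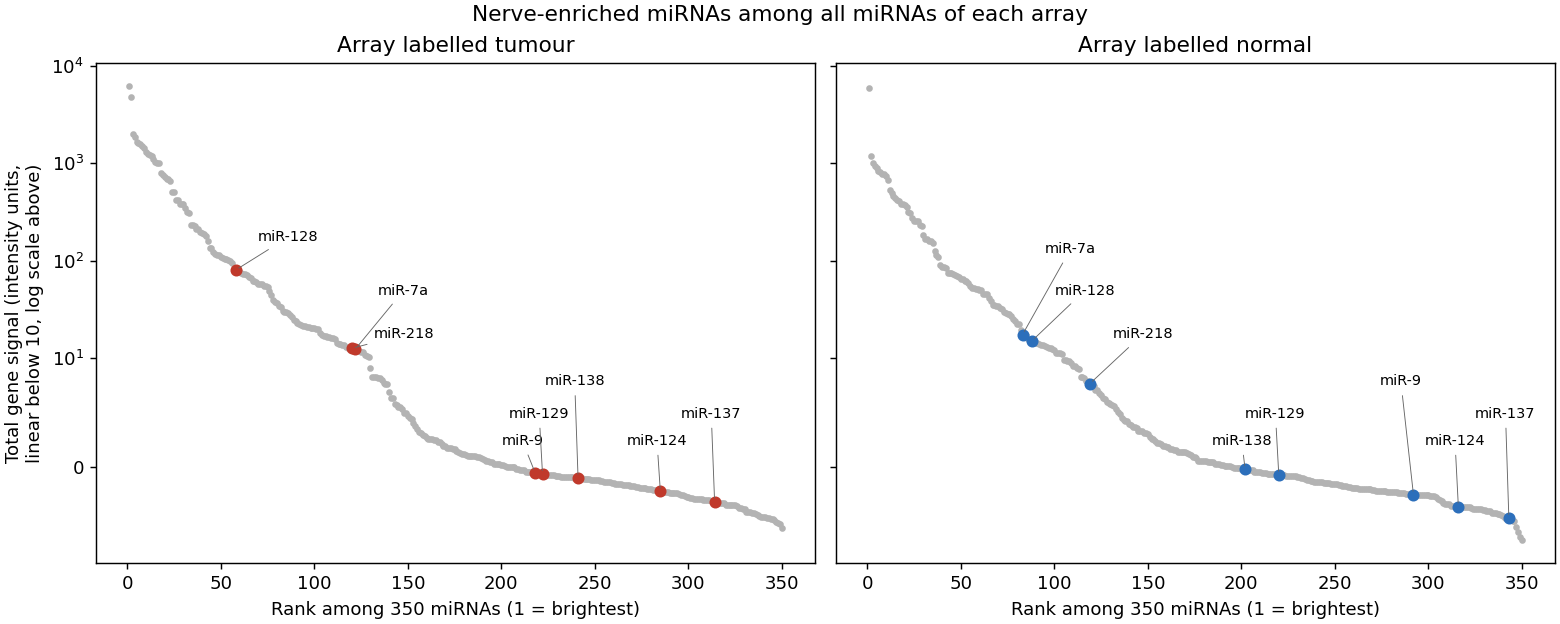
Total gene signal in intensity units (linear below 10, log scale above) of 350 miRNAs by rank, the tumour-labelled array on the left and the normal-labelled array on the right, with the 8 nerve-enriched miRNAs coloured. miR-128 ranks 58 on the tumour-labelled array and 88 on the normal-labelled array, and 5 of the 8 lie below 0 on both arrays, where ranks carry no order of level.

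As a group the 8 held little of the signal. Their total gene signals, with negative values set to 0, summed to 105.8 units on the tumour-labelled array and 40.3 on the normal-labelled array, which was 0.228% and 0.159% of the signal of all miRNAs of the same array. Their median total gene signal was -0.613 on the tumour-labelled array and -0.493 on the normal-labelled array, beside 1.53 and 0.815 over all 350 miRNAs. Each of these medians lay within the software's error of a member's total, which was at least 3.24, so their order has no meaning. The share of signal held by other sets of 8 miRNAs was not counted. Probes differ in brightness for equal RNA, so these are shares of signal, not of RNA molecules.

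Star strands, paralogs and other neural-linked miRNAs were detected on neither array, which was also so for 69.4% of all miRNAs. Of 7 star strands and paralogs of the members on the array, 0 were detected on either array; miR-128* was among the names sought and had no probe of that name. The brightest was miR-129*, with 7.67 units on the tumour-labelled array and 5.01 on the normal-labelled array. Of 9 other miRNAs linked to neural cells, 0 were detected on either array. miR-212, which is induced by neuronal activity, came nearest on the tumour-labelled array: its longer probe averaged 19.0 ± 6.50 there, with 3 of 10 spots well above background, and 14.8 ± 2.48 with 2 of 10 on the normal-labelled array. The software's call marked miR-212 as detected on both arrays and miR-134, a dendritic miRNA, on the normal-labelled array alone.

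Of the 2 glial miRNAs, miR-219-5p, of oligodendrocytes, was at background on both arrays, and miR-338 was detected on the tumour-labelled array alone. The longer probe of miR-338 had a lowest, median and highest spot of 37.1, 41.1 and 42.2 on the tumour-labelled array, against 5.51, 7.14 and 8.40 on the normal-labelled array. These spots did not overlap, which was also so for the longer probe of miR-126. Its lower bound was at least 1.06-fold higher on the tumour-labelled array after scaling and at least 2.01-fold without scaling. By probe the scaled bound was 1.17 for the longer and 0.963 for the shorter, which therefore gives no fold. miR-375, of neuroendocrine cells, was at background on both arrays.

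Markers of other cells of the tongue were present by the same rule. Besides the 4 muscle miRNAs, all 7 epithelial miRNAs (miR-141, miR-200a, miR-200b, miR-200c, miR-203, miR-205 and miR-429) and the endothelial miR-126 were detected on each array. Of the leukocyte miRNAs 3 of 4 were detected on each array, miR-142-3p, miR-150 and miR-223 but not miR-142-5p. Of the stromal miRNAs 3 of 4 were, miR-143, miR-199a-5p and miR-214 but not miR-145. Both arrays thus carried miRNAs of muscle and of epithelium, the main tissues of the tongue.

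**Figure D4:**
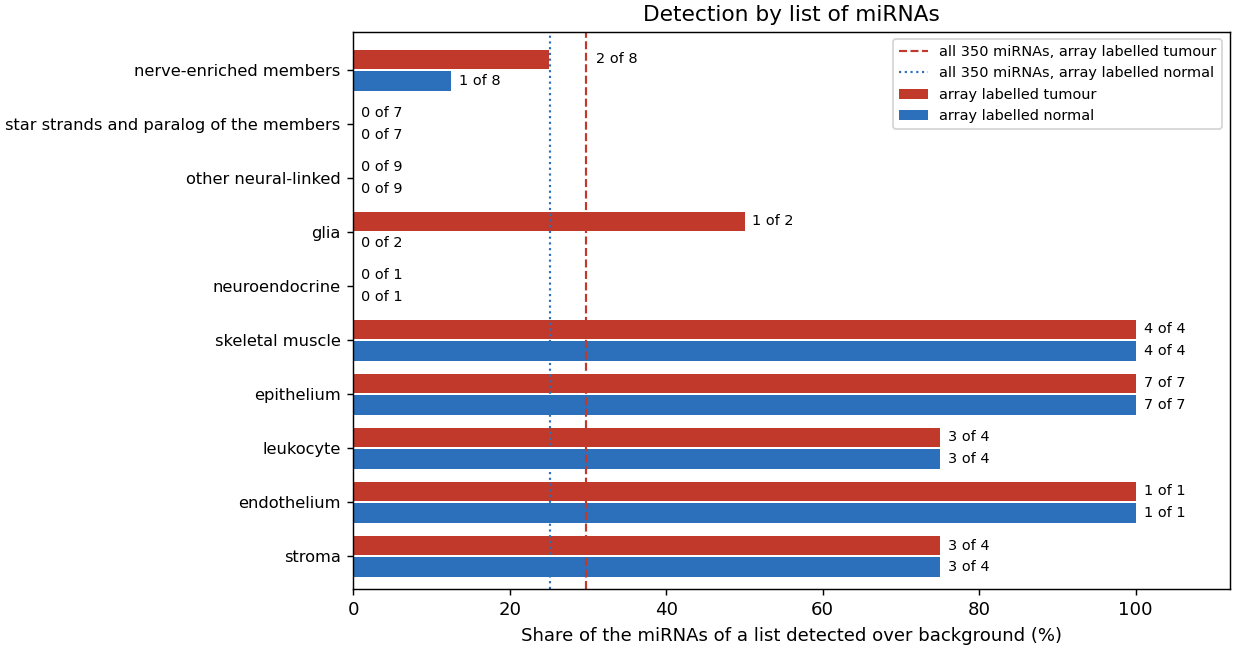
Share in percent of the miRNAs of each list that were detected over background, with the tumour-labelled array above the normal-labelled array and counts beside the bars; vertical lines are the shares over all 350 miRNAs (29.7% and 25.1%). The nerve-enriched miRNAs stand at 2 of 8 on the tumour-labelled array and 1 of 8 on the normal-labelled array, while muscle and epithelial miRNAs were all detected.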

How the data were processed

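Total RNA of each group was hybridised to an Agilent 1-colour miRNA array. The labels name a kit for messenger RNA amplification and give no step for labelling miRNA. Per the file headers, the authors' intensity values come from Agilent Feature Extraction 10.5.1.1 with spatial detrending on and local background correction off. In all 7953 spots of each array, controls included, the processed signal equalled the spot mean minus the fitted surface, within 0.01. Nothing was scaled between arrays. The authors' value table holds the software's total gene signal as intensity, with values below 1 set to 1: its 182 miRNAs above 1 on the tumour-labelled array equalled that signal within a relative 0.0001, as did its 173 on the normal-labelled array. Its column medians were 1.70 and 1.32.

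Spots marked as outliers were left out, 248 of 7000 on the tumour-labelled array and 336 of 7000 on the normal-labelled array, and the others averaged per probe on the linear scale. No spot was saturated. Detection, scaling to the 75th percentile and lower bounds are defined in the text above. A fold of 2 is a rule of size and not a test, and the number of arrays limits the precision. Python 3.11.15 and, for normexp, limma 3.58.1 were used. A simulation checked the log2 ratios of miRNAs measured on both arrays, after the median shift of unchanged miRNAs was removed. It did not check the scaling factor, the detection calls or the lower bounds. miRNAs were matched to RefSeq by their probe sequences.

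By rule all 8 members are named, and from the lists of related or marker miRNAs each one detected on either array. miR-7b, miR-21, miR-31, miR-129*, miR-134, miR-142-5p, miR-145, miR-212, miR-219-5p and miR-375 fall outside this rule and were named after their values were seen. The members and lists were chosen with earlier results of these data known. The alternatives, 13 planned and 1 chosen after seeing the data, changed the detection rule, spots, signal, scaling or source table.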

Additional observations from a re-analysis of the deposited data

How the results depend on the processing

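miR-128 was detected on the tumour-labelled array under all 14 alternatives, and miR-7a on the normal-labelled array under all 14. miR-9, miR-124, miR-129, miR-137 and miR-138 were detected on neither array under any of them. The count on the tumour-labelled array, 2, became 1 with all spots required and with spots of even number, both by loss of miR-7a, which then gave no ratio. It became 3, through miR-218, with any spot, the software's call, negative controls plus 3 SD and the deposited value table, where all miRNAs detected there numbered 129, 126, 134 and 182 of 350, beside 104. The count on the normal-labelled array, 1, became 3 with any spot and with the deposited value table, and 2 with the software's call and with negative controls plus 3 SD. All miRNAs on that array then numbered 110 with any spot, 173 with the deposited table, 110 with the software's call and 111 with negative controls, beside 88, so the looser rules raised both. In those 4 settings miR-128 was measured on both arrays, with log2 ratios from 1.26 to 1.59 in place of a bound.

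The bound for miR-128 was 1.24 with all spots required, 1.81 with spots of odd number, 2.45 with total gene signal, 2.22 with the percentile over all probes, 3.01 without scaling and, chosen after seeing the data, 2.04 without muscle miRNAs in the percentile. With normexp it fell under 1 and gives no fold. The log2 ratio of miR-7a stayed below 0 in the 12 alternatives that gave it. It was -0.89 with normexp, -0.79 with the percentile over all probes, -0.35 without scaling and -0.91 without muscle miRNAs, all under 2-fold, and -1.62 with total gene signal and -1.65 with the deposited table. For these values the cause was not tested. Of 49 values of the main results under the alternatives, 31 were counted as unchanged and 18 as moved. Of the 280 other values, counts of all miRNAs and of the lists, 266 stayed within 1.5 times. The exceptions include 4 other neural-linked miRNAs on the tumour-labelled array and 5 on the normal-labelled array above 1 in the deposited table. The calls of miR-7a on the tumour-labelled array, of miR-128 on the normal-labelled array and of miR-218 on both depended on the rule or the spots used. No paired analysis was possible because each group holds 1 array.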
